A study of Mus musculus with 36 samples.

Results

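The Tcl1 cluster of the mouse comprises Tcl1 and the 5 Tcl1b genes, Tcl1b1, Tcl1b2, Tcl1b3, Tcl1b4 and Tcl1b5. The genes were taken by their symbols from a table of estimated RNA-seq counts, and all 6 were among its 23845 genes. The table covers 36 libraries of mouse embryos, 17 at the 2-cell stage (2C) and 19 at the 8-cell stage (8C). The labels describe the embryos as injected, 4 to 5 of them were pooled for a library, and the cDNA came from SMART-seq v4, a kit for very small amounts of RNA. By treatment label, the 2C libraries were 4 NI, 7 Ctrl and 6 KRAB, and the 8C libraries were 6 NI, 6 Ctrl and 7 VP64. The title concerns LINE-1, a retrotransposon switched on after fertilisation. KRAB is a known repressor domain of transcription and VP64 a known activator domain. The labels do not spell out NI, do not say what Ctrl embryos received, and name no strain, age, injected construct or hours of culture. The stage is therefore compared within NI and within Ctrl, KRAB was measured at 2C only and VP64 at 8C only.

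TCL1 proteins are small beta-barrel proteins without enzymatic activity that bind the kinase AKT and promote its activation. Human TCL1A is known from lymphoid cells, where chromosomal rearrangements switch it on in T-cell leukaemia. In the mouse, Tcl1 and the Tcl1b genes are abundant in oocytes and early embryos, and loss of Tcl1 is known to impair cleavage. The Tcl1b genes arose by tandem duplication, so that several near copies lie side by side where the human genome holds a single TCL1B.

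By the GENCODE vM21 annotation of GRCm38 (mm10), the cluster spans 76.8 kb of chromosome 12, from 105146014 to 105222793, with 0 other protein-coding genes inside. The 5 Tcl1b genes lie head to tail on the plus strand, in the order Tcl1b2 (105146014 to 105155225), Tcl1b1 (105159690 to 105166625), Tcl1b5 (105176344 to 105181145), Tcl1b3 (105191043 to 105195612) and Tcl1b4 (105201957 to 105206993). Tcl1 (105216750 to 105222793) closes the row on the minus strand, facing them. The sequence before the RefSeq start of each gene is shown because the Tcl1b genes varied together in the libraries below, with lower correlations to Tcl1 by value. Whether these sequences have a part in that was not tested. RefSeq's promoter table (GRCm38.p6) matched 6 of 6 genes. The windows are the 250 bases before the RefSeq start, read 5′ to 3′ on the gene's strand and printed as far as the first annotated exon. That of Tcl1b2 lies inside the gene's GENCODE span, between its annotated exons, as the RefSeq start lies further in than the first GENCODE start. Tcl1b4 is not printed, as its window lies wholly in an exon of another Tcl1b4 transcript. Capitals mark a run of 25 bases found in all 5 Tcl1b windows. The printed Tcl1b windows also share another run as long, nearer the start, which is not marked.
Tcl1b2 (chr12:105146769-105147018, plus strand): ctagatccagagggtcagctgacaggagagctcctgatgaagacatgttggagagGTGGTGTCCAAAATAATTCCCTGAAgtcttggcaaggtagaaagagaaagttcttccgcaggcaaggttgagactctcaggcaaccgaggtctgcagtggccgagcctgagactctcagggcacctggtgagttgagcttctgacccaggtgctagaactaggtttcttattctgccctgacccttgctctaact
Tcl1b1 (chr12:105159454-105159689, plus strand): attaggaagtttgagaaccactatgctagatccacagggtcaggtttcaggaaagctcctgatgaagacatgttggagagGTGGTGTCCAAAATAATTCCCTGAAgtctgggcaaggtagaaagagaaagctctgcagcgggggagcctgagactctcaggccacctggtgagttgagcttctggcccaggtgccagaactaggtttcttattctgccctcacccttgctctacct
Tcl1b5 (chr12:105176094-105176343, plus strand): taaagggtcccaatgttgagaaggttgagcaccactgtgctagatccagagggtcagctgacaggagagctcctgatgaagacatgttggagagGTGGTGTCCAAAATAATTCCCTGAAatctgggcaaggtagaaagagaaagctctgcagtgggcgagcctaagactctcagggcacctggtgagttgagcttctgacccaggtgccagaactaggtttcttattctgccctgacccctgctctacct
Tcl1b3 (chr12:105190795-105191042, plus strand): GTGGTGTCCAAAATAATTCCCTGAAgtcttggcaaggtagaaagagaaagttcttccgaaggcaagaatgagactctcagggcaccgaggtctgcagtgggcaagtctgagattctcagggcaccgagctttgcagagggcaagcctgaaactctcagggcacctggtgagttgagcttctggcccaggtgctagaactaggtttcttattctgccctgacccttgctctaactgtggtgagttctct
Tcl1 (chr12:105222794-105222987, minus strand): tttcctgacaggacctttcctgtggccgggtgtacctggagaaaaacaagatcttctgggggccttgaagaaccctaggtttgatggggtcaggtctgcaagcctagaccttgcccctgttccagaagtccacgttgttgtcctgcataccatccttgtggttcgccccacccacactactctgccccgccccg

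The Tcl1b windows were near copies of each other, with 91.9% to 99.2% identical bases over the aligned stretches of each pair. Tcl1 shared 63.5% to 67.6% with them over its aligned stretches. The capitalised run began 250 bases before the start in Tcl1b3, 195 in Tcl1b2, 182 in Tcl1b4, 170 in Tcl1b1 and 156 in Tcl1b5. It was searched after the sequences had been seen, and of 32851 mouse promoter windows of this length, 5 held it (0.0152%), the 5 Tcl1b windows. The E-box letters CANNTG, searched on both strands, occurred 1 time in the Tcl1 window and 2 or 3 times in each Tcl1b window, and 66.2% of all windows held them. TATAAA (12.4% of all windows), GGATTA (6.25%) and TAATTG (7.17%), also searched on both strands, were not among the letters of any of the 6 windows. A match of letters is no evidence of a bound factor.

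How alike the transcripts are bears on how far counts of the 6 genes can be told apart. The principal transcripts of the Tcl1b genes, 1009 to 1055 bases long, matched each other at 85.6% to 93.3% of aligned bases, and that of Tcl1, 1398 bases long, matched them at 65.24% to 66.98%. Of the distinct 31-base words in its transcripts, Tcl1b3 shared 47.5% with another member, Tcl1b5 38.3%, Tcl1b2 33.4%, Tcl1b1 29.2% and Tcl1b4 12.4%. Tcl1 shared 0% with the others, and 0% of the words of any member occurred in other genes. Single values of the Tcl1b genes are therefore uncertain to the extent that the estimate divided reads between copies, while Tcl1 is free of this.

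Libraries held 1043740 counts (Ctrl 2C replicate 6) to 13583527 counts (NI 8C replicate 4). Replicate numbers follow accession order and only name libraries. No label names separate cultures or litters, so the spread behind each p-value is that between pools, and it may be technical. Markers of oocyte-derived and embryonic RNA were detected in every group. Lymphocytes also express Tcl1. Of 8 lymphocyte markers, only Ptprc and Cd3e were at 0 in all 6 groups, and the others were all detected in Ctrl 2C. The 8 summed to 15.1 to 159 counts per 1e+06 counts of the library (CPM) at 2C and 2.71 to 38.6 at 8C. Of 16 cumulus and granulosa markers only Col1a2 was at 0 in all groups, with 3 (Ctrl 2C and KRAB 2C) to 12 (Ctrl 8C) at 0 in a group. The 16 summed to 7.58 to 417 CPM at 2C and 15.6 to 406 at 8C.

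The 6 genes were among those with the most counts at 2C and near the limit of detection at 8C. By mean CPM over the 2C libraries, which is not corrected for length, Tcl1 ranked 11 of 23845 genes, Tcl1b1 41, Tcl1b2 55, Tcl1b4 143, Tcl1b3 179 and Tcl1b5 242. At 8C they ranked from 6787 (Tcl1) to 11681 (Tcl1b5). Together they took 0.109% to 1.92% of all counts of a 2C library (median 0.910%), and 0.000184% to 0.00570% of those of an 8C library. In bulk RNA, fewer cells that hold a transcript and less of it per cell cannot be told apart.

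Tcl1, the founding member of the family, was measured at 440, 3967, 1007 and 1273 CPM in the 4 NI 2C libraries. In Ctrl 2C it ranged from 1050 to 15795 CPM (median 6142), and in KRAB 2C from 1293 to 7237 (median 4001). In the 8C libraries the ranges were 1.54 to 25.9 CPM in NI (median 3.97), 1.88 to 14.6 in Ctrl (median 7.49) and 3.55 to 12.6 in VP64 (median 5.70). The lowest 2C library thus lay far above the highest 8C library, and Tcl1 was the only member detected in all 19 of the 8C libraries. Tcl1 was 174-fold lower at 8C in NI (log2 fold change -7.44 ± 0.88 SE, adjusted p = 2.18e-08, edgeR quasi-likelihood test with Benjamini-Hochberg adjustment). In Ctrl it was 797-fold lower (-9.64 ± 0.94, adjusted p = 2.02e-10).

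Tcl1b1, the most abundant of the Tcl1b genes, was measured at 263, 1101, 1955 and 368 CPM in NI 2C. It ranged from 373 to 4046 CPM in Ctrl 2C (median 2864) and from 982 to 3786 in KRAB 2C (median 1883). In NI 8C it ranged from 0.154 to 11.5 CPM (median 2.38), in Ctrl 8C from 0 to 8.12 (median 0.360) and in VP64 8C from 1.25 to 9.69 (median 3.30). The stages did not overlap, and 3 of the 6 Ctrl 8C libraries had no count of it. The fall was 223-fold in NI (log2 fold change -7.80 ± 1.10, edgeR adjusted p = 4.37e-07) and 1013-fold in Ctrl (-9.98 ± 1.18, adjusted p = 6.50e-09).

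Tcl1b2, at the outer end of the row, followed the same order of the NI 2C libraries as Tcl1b1. It was measured at 148, 687, 1081 and 207 CPM in NI 2C, and ranged from 215 to 2767 in Ctrl 2C (median 1932) and from 518 to 3405 in KRAB 2C (median 1603). At 8C it ranged from 0 to 7.16 CPM in NI (median 1.79), 0 to 3.38 in Ctrl (median 1.05) and 0 to 7.05 in VP64 (median 0.986). The 2C and 8C ranges did not overlap, and 4 of the 19 8C libraries were at 0. The log2 fold change of Tcl1b2 was -7.52 ± 1.03 in NI (edgeR adjusted p = 2.64e-07) and -10.49 ± 1.15 in Ctrl (adjusted p = 1.42e-09).

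Tcl1b3, Tcl1b4 and Tcl1b5 were the lower members at 2C. In the 4 NI 2C libraries Tcl1b3 was measured at 40, 389, 382 and 107 CPM, Tcl1b4 at 58.5, 424, 559 and 107, and Tcl1b5 at 89.8, 295, 433 and 88.4. The Ctrl 2C ranges were 98.2 to 1085 CPM for Tcl1b3 (median 792), 116 to 1446 for Tcl1b4 (median 1011) and 84.97 to 855 for Tcl1b5 (median 638). The KRAB 2C ranges were 361 to 1190 CPM (median 683), 335 to 1510 (median 692) and 266 to 1031 (median 547) in the same order of genes. All 3 were thus low in NI replicates 1 and 4 and higher in replicates 2 and 3. The highest 8C levels were 3.41 CPM of Tcl1b3, 3.43 of Tcl1b4 and 2.995 of Tcl1b5. Tcl1b4 was at 0 in 9 of the 19 8C libraries, and Tcl1b3 and Tcl1b5 in 5 each. The log2 fold changes in NI were -7.40 ± 0.93 for Tcl1b3, -8.30 ± 1.14 for Tcl1b4 and -8.27 ± 0.92 for Tcl1b5, and in Ctrl -10.74 ± 1.07, -9.64 ± 1.18 and -10.15 ± 0.99.

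**Figure D1:**
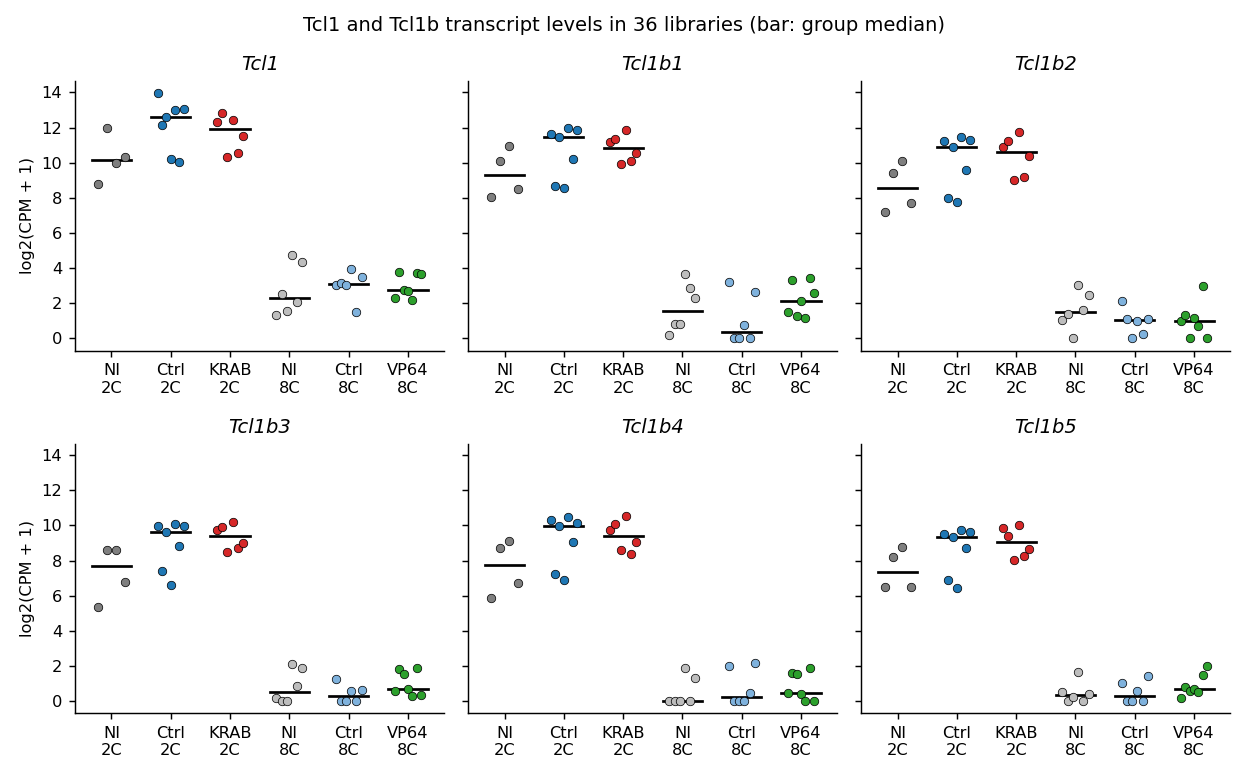
Level of each gene, as log2(CPM + 1), in the 36 libraries by treatment and stage; each point is 1 library and the bar is the group median. For each of the 6 genes every 2C library lay above every 8C library, while the 3 groups of a stage overlapped.

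At 8C these levels rested on few counts. The 6 genes together had 9 to 774 counts per library in NI, 13 to 72 in Ctrl and 24 to 112 in VP64, against 1690 to 162955 in the 2C libraries. A count of 3, the upper limit that a count of 0 allows, was worth 0.205 CPM in NI 8C replicate 4 and 2.64 CPM in VP64 8C replicate 6. A level of up to 2.64 CPM could thus read 0 in the shallowest of them. Without molecular identifiers in the reads, such limits hold for counting error alone. The Ctrl 8C group had 36 counts of Tcl1b1 in all, 19 of Tcl1b2, 17 of Tcl1b4, 8 of Tcl1b5 and 7 of Tcl1b3.

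Across the stages, 6 of 6 members passed the test and fell in NI and again in Ctrl. Falls were common: of 13158 genes tested, 31.4% were called lower in NI and 39% in Ctrl, and 49.9% and 61.5% were called in either direction. Groups that did not overlap, with 8C lower, were found for 6 of 6 members in both, against 20.7% of all genes in NI and 17.3% in Ctrl. The size of the fall was rarer. A log2 fold change below -7 was found for 6 of 6 members in both, against 1.17% of all genes in NI and 5.49% in Ctrl. That cutoff lies close to the members' smallest fall, -7.40 for Tcl1b3 in NI, so 6 of 6 follows from its choice. Genes with few counts at 2C cannot show such a fall, while the members were among those with the most. The median of the 6 was -7.66 in NI and -10.07 in Ctrl, and that of all genes -0.47 and -0.51. The adjusted p (edgeR) was at most 4.37e-07 in NI and at most 1.29e-08 in Ctrl. Ranked by the most negative fold change, the members stood between places 29 and 95 in NI and between 26 and 105 in Ctrl. The NI and Ctrl comparisons share no library, but both come from the same fit and share its estimate of the spread. With only the 2 groups in the fit, edgeR's adjusted p was at most 2.05e-05 in NI and 2.35e-05 in Ctrl.

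Single libraries moved the size of the fall without ending any call. Without NI 8C replicate 4, which had the highest 8C level of Tcl1, Tcl1b1, Tcl1b2 and Tcl1b3, the NI values became -8.24 for Tcl1, -8.74 for Tcl1b1, -8.32 for Tcl1b2, -8.37 for Tcl1b3, -9.91 for Tcl1b4 and -9.77 for Tcl1b5. Without NI 2C replicate 2 that of Tcl1 was -6.64, and without NI 2C replicate 3 that of Tcl1b1 was -7.14 and that of Tcl1b2 -6.92. In Ctrl, without 8C replicate 1, the values were -11.23 for Tcl1b1, -11.35 for Tcl1b2, -11.70 for Tcl1b3 and -10.46 for Tcl1b4. Without Ctrl 8C replicate 6 they were -10.27 for Tcl1b4 and -10.78 for Tcl1b5.

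The fall was larger in Ctrl than in NI by value for 6 of 6 members, but the difference itself was not called for any. Its median was -2.19 for the members and -0.32 for all genes tested. The members varied together at 2C, so 6 of 6 does not stand for independent observations. In edgeR's interaction term 0 of 6 members and 0% of the 13158 genes passed, while 3 members and 2680 genes (20.4%) had an unadjusted p under 0.05. The difference in edgeR's fit was -3.34 ± 1.22 for Tcl1b3 (unadjusted p 0.0091, adjusted p = 0.126), -2.97 ± 1.25 for Tcl1b2 (adjusted p = 0.170) and -2.20 ± 1.01 for Tcl1 (unadjusted p 0.0348, adjusted p = 0.206). The other members lay between -2.18 and -1.34, with an adjusted p of up to 0.612. Without Ctrl 2C replicates 2, 4 or 6, edgeR's interaction called 84, 265 and 1098 genes, and 0 members.

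**Figure D2:**
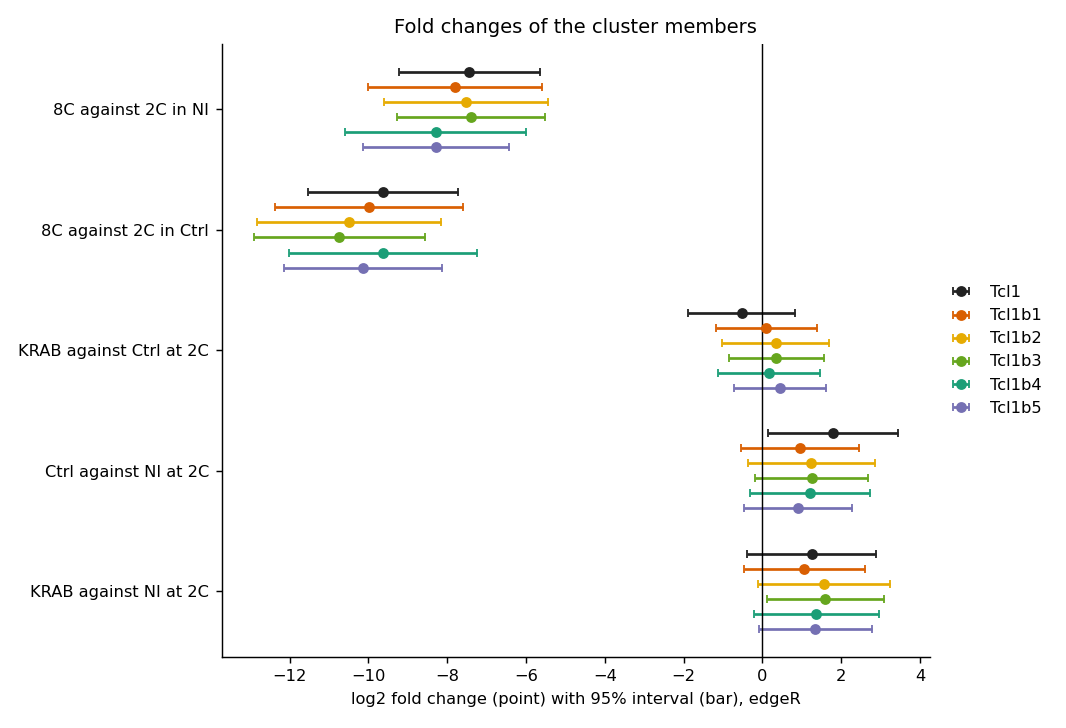
edgeR log2 fold change of each gene (points) with its 95% interval (bars) in 5 comparisons; values below 0 are lower in the first-named group. The stage changes lie between -10.74 and -7.40, with intervals clear of 0, while the treatment comparisons at 2C lie between -0.53 and 1.78.

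Within the 2C stage no treatment comparison called a member. By median the order was Ctrl, then KRAB, then NI for 6 of 6 genes, and the ranges of the 3 groups overlapped for every gene. KRAB against Ctrl, which sets the repressor domain against the control, gave a log2 fold change of -0.53 ± 0.65 for Tcl1, with a 95% interval of -1.89 to 0.83. The Tcl1b genes lay between 0.10 and 0.45, their widest interval being that of Tcl1b2, from -1.03 to 1.69. By this fit Tcl1b genes were level or slightly higher in KRAB, while their medians were lower in KRAB than in Ctrl, so the direction is not settled. In edgeR 0 of 6 members and 0% of 11799 genes passed (members' adjusted p from 0.676 to 0.943), and 0 members and 1838 genes (15.6%) had an unadjusted p under 0.05. DESeq2 called 242 genes, and edgeR without Ctrl 2C replicate 6, the shallowest 2C library, 159, in both cases 0 of them members.

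Ctrl against NI gave positive values for 6 of 6 members, as for 52.3% of all genes. The Ctrl 2C libraries were deeper, with a median of 7176488 counts against 2344780 in NI 2C, and the part of depth was not tested. Tcl1 was 1.78 ± 0.79 higher on the log2 scale (95% interval 0.14 to 3.43, unadjusted p 0.0354, adjusted p = 0.186, edgeR), and the Tcl1b genes lay between 0.90 and 1.25, with adjusted p up to 0.421. Without NI 2C replicate 2 the value of Tcl1 was 2.59, and without NI 2C replicate 3 the Tcl1b genes lay between 1.44 and 1.87, none of them called. Of the 11799 genes 0% passed in edgeR, and 1 member and 2756 genes (23.4%) had an unadjusted p under 0.05, while DESeq2 called 1086 genes and edgeR without Ctrl 2C replicate 6 called 1374, in both cases 0 of them members. KRAB against NI was also positive for 6 of 6 members, against 48.9% of all genes. The values ran from 1.06 for Tcl1b1 to 1.59 ± 0.71 for Tcl1b3 (edgeR unadjusted p = 0.0369), and every adjusted p was 0.998. Here too 0% of genes passed in edgeR, 1 member and 368 genes (3.12%) had an unadjusted p under 0.05, and DESeq2 called 0 genes. The 3 comparisons share libraries, so their values are not independent of each other. As the members varied together at 2C, 6 of 6 does not stand for independent observations here either. NI 2C replicate 1 was the lowest 2C library for 5 members, and Ctrl 2C replicate 4 for Tcl1b5.

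At 8C only Tcl1 and Tcl1b1 passed the filter on low counts, and neither was called. VP64 against Ctrl, the activator domain against the control, gave -0.07 ± 0.61 for Tcl1 (95% interval -1.33 to 1.20) and 0.96 ± 1.01 for Tcl1b1 (-1.13 to 3.05). Ctrl against NI gave -0.22 ± 0.63 for Tcl1 and -0.83 ± 1.03 for Tcl1b1. VP64 against NI gave -0.29 ± 0.61 and 0.12 ± 0.96. Of 9850 genes 0% passed in edgeR in each of the 3 comparisons, and 0 members and 393, 429 and 706 genes (3.99%, 4.36% and 7.17%) had an unadjusted p under 0.05. DESeq2 called 1, 1 and 21 genes, and 0 members. A rise of Tcl1b1 with VP64 of up to 3.05 on the log2 scale, or a fall of up to 1.13, was within the interval. Without Ctrl 8C replicate 1, which held 24 of the group's 36 counts of Tcl1b1, VP64 against Ctrl became 2.12 and Ctrl against NI -1.999 for this gene. Without NI 8C replicate 4 Ctrl against NI was -0.10 and VP64 against NI 0.85, and none of these was called. The other 4 genes had 19 (Tcl1b4) to 29 counts (Tcl1b2) in the 7 VP64 libraries together and are given above by their levels only.

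Levels of different genes can be compared only per length, and per kilobase of the principal transcript the order at 2C was Tcl1, Tcl1b1, Tcl1b2, Tcl1b4, Tcl1b3 and Tcl1b5. The medians over the 17 libraries were 2838 CPM per kb for Tcl1, 1436 for Tcl1b1, 1072 for Tcl1b2, 511 for Tcl1b4, 432 for Tcl1b3 and 402 for Tcl1b5. Neighbours in this order kept it in 14 of 17 libraries for Tcl1 over Tcl1b1, in 17 for Tcl1b1 over Tcl1b2 and for Tcl1b2 over Tcl1b4, in 15 for Tcl1b4 over Tcl1b3, and in 14 for Tcl1b3 over Tcl1b5. The last 3 genes are thus close: with all exons of a gene counted in its length, Tcl1b4 had a median of 352 CPM per kb, below both Tcl1b3 and Tcl1b5. The upper order, Tcl1 above Tcl1b1 above Tcl1b2, held with that length too.

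By value, the Tcl1b genes kept closer proportions among themselves than with Tcl1. Of the Tcl1b counts of a 2C library, Tcl1b1 took 38.6% ± 3.39 (SD, n = 17), Tcl1b2 25.8% ± 3.28, Tcl1b4 13.4% ± 1.44, Tcl1b3 11.9% ± 2.20 and Tcl1b5 10.3% ± 1.89. Tcl1 took between 18.6% (NI replicate 3) and 80.2% (Ctrl replicate 2) of the cluster's counts, with a median of 44.4%. By group its share was 44.5% ± 18.9 in NI (n = 4), 52.1% ± 17.7 in Ctrl (n = 7) and 39.2% ± 5.76 in KRAB (n = 6). The KRAB libraries lay close together, from 34.0% to 48.4%, inside the range of the other groups.

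**Figure D3:**
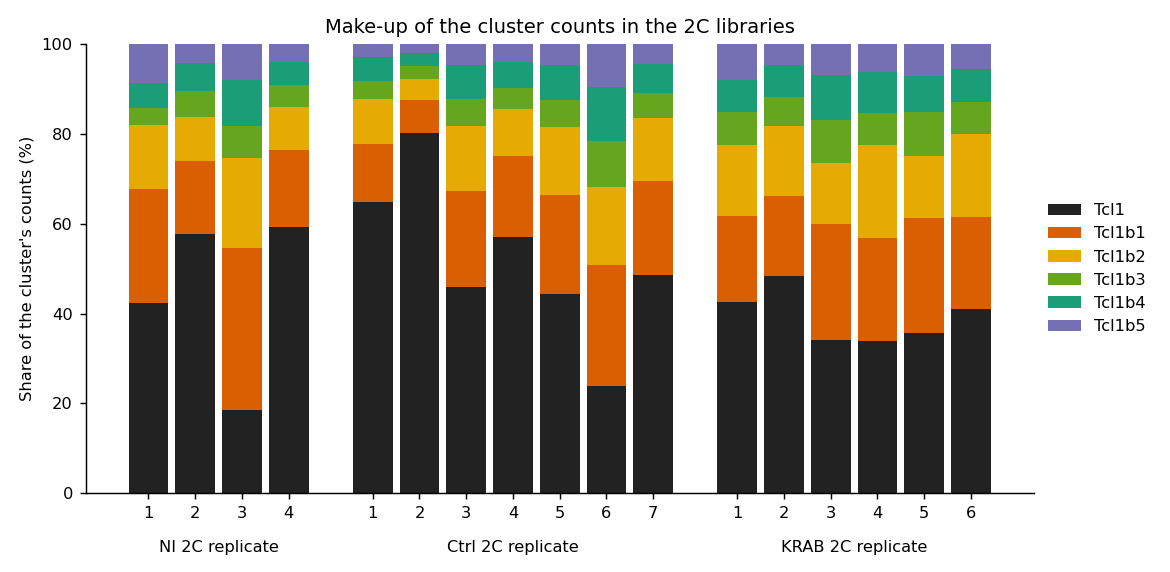
Share of each gene in the cluster's counts, in percent, for each 2C library (1 stacked bar per library, by treatment label). The black Tcl1 section varies from 18.6% in NI replicate 3 to 80.2% in Ctrl replicate 2, while Tcl1b1 is the largest of the Tcl1b sections in each library.

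A ratio within a library does not depend on how libraries are scaled. There were 0.0916 counts of Tcl1b1 per count of Tcl1 in Ctrl 2C replicate 2 and 1.94 in NI 2C replicate 3, with a median of 0.466 over the 17 libraries. On the log2 scale the ratio of a Tcl1b gene to Tcl1 had an SD of 0.94 to 1.05 over the 17 libraries, and the ratio of one Tcl1b gene to another an SD of 0.24 to 0.40. Whether the ratio to Tcl1 differed between groups was tested by exact permutation over libraries, two-sided, with a pseudocount of 0.5, in 25 comparisons, and 0 of 25 passed after adjustment. In KRAB the Tcl1b genes stood 0.67 to 0.92 higher against Tcl1 than in Ctrl on the log2 scale, for 5 of 5 genes (exact permutation p from 0.0944 to 0.200, adjusted p = 0.548). These 5 ratios share the Tcl1 count of each library, and the Tcl1b genes varied together, so they are not independent. The smallest raw value was that of Tcl1b4 between the stages in NI, with a log2 ratio of -3.89 ± 0.48 at 8C (n = 6) and -2.64 ± 1.22 at 2C (n = 4), a difference of -1.25 (exact permutation p = 0.0381, adjusted p = 0.548). Tcl1b4 was at 0 in 4 of these 6 8C libraries, and with a pseudocount of 2 the difference was -0.015. These splits could have given a p as small as 0.00952 for 6 libraries against 4 and 0.00117 for 6 against 7. Between the stages in Ctrl the log2 ratios differed by -1.93 to -0.69, lower at 8C, with an exact permutation p from 0.107 to 0.441 (adjusted p from 0.548 to 0.734). These differences rest on few 8C counts, and with a pseudocount of 2 those of Tcl1b3, Tcl1b4 and Tcl1b5 turned to 0.089, 0.24 and 0.49.

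Over the 17 2C libraries the 5 Tcl1b genes varied together. For the 10 pairs of Tcl1b genes Pearson's r of log2(CPM + 1) was 0.96 to 0.99 and Spearman's rho 0.94 to 0.99 (permutation p = 1e-05, the smallest that 100000 resamples can give, adjusted over 15 pairs 1.5e-05). For Tcl1 with each Tcl1b gene r was 0.70 to 0.78 and rho 0.70 to 0.82 (permutation test, adjusted p of r up to 0.00207). Without the 2 libraries farthest from the median, r was 0.97 to 0.99 between Tcl1b genes and 0.62 to 0.70 with Tcl1. After each group's mean had been removed, r over the 17 libraries was 0.96 to 0.99 and 0.66 to 0.75, so the relations did not rest on differences between group means alone. No r was computed within a single treatment. The pairs share library, depth and scaling, and the Tcl1b genes share 31-base words; the part of these in the correlations was not tested, nor was the difference between both sets of r.

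To see which RNA the levels went with, the 2C libraries were also compared on 8 genes of the oocyte's coat and secreted factors (Zp1, Zp2, Zp3, Gdf9, Bmp15, Oosp1, Oosp2, Oosp3) and on 9 genes of the 2-cell embryo (Zscan4c, Zscan4d, Zscan4f, Tcstv1, Tcstv3, Zfp352, Tmem92, Sp110, Gm4850). These 9 relations were chosen after the levels had been seen. With the mean log2(CPM + 1) of the oocyte genes, Tcl1b1 had r = 0.90 and rho = 0.93 (permutation test, adjusted p of r 9e-05), with r = 0.90 without the 2 farthest libraries. Tcl1 had r = 0.65 and rho = 0.65 (adjusted p = 0.0119), and r = 0.56 without these 2 libraries, where its adjusted p was 0.0969, so that the call, though not most of the size, rests on them. With each group's mean removed it had r = 0.60 (adjusted p = 0.0256). With the 2-cell genes Tcl1b1 had r = 0.68 and Tcl1 r = 0.65, which became 0.50 and 0.48 without the 2 farthest libraries (adjusted p = 0.123 for both). The log2 ratio of Tcl1b1 to Tcl1 had r = 0.26 with the oocyte genes (adjusted p = 0.417), -0.05 with the 2-cell genes (adjusted p = 0.846) and -0.51 with the log10 total count (adjusted p = 0.0530). The level of Tcl1 had r = 0.52 and rho = 0.55 with the log10 total count (permutation test, adjusted p of r 0.0530 and of rho 0.0429), and r = 0.40 without the 2 farthest libraries (adjusted p = 0.214). That of Tcl1b1 had r = 0.19 (adjusted p = 0.518).

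**Figure D4:**
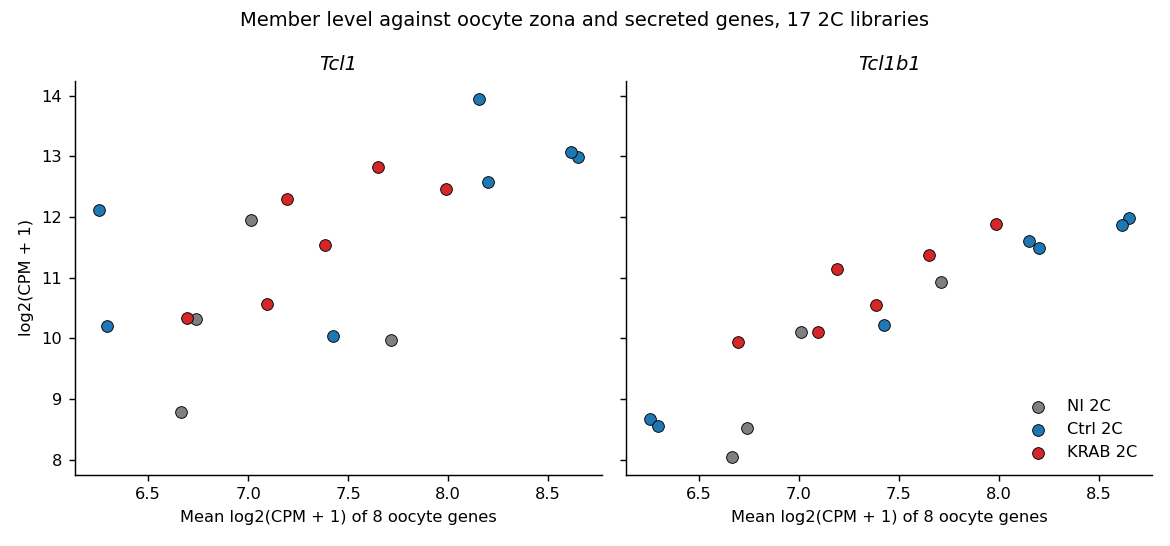
Level of Tcl1 (left) and Tcl1b1 (right), as log2(CPM + 1), against the mean log2(CPM + 1) of 8 oocyte genes; each point is 1 of the 17 2C libraries, coloured by treatment label. Tcl1b1 follows the oocyte genes closely (r = 0.90), and Tcl1 scatters more (r = 0.65).

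Most of these genes also fell between the stages. Of the 8 oocyte genes 7 were called lower at 8C in NI and in Ctrl (edgeR), with medians of -5.82 and -6.99, and 8 of the 9 genes of the 2-cell embryo were called lower in both, with medians of -5.66 and -5.47. Of all genes 31.4% and 39% were called lower, with medians of -0.47 and -0.51. The remaining gene, Sp110, was called higher in Ctrl (1.63 ± 0.41, edgeR adjusted p = 0.000721) and was at 0.27 ± 0.47 in NI. The largest falls among the oocyte genes were those of Oosp3 (-8.84 ± 1.04 in NI and -10.64 ± 1.12 in Ctrl), followed by Oosp1 in NI (-8.70 ± 0.87) and Bmp15 in Ctrl (-9.57 ± 1.11). The cluster's medians of -7.66 and -10.07 were lower than the medians of both lists. Among the 13158 genes tested, the patterns most like that of Tcl1 over the 36 libraries, by the root mean square difference of centred log2(CPM + 1), were C86187 (0.81), Obox5 (0.89), Gm1965 (0.95), Btg4 (0.96) and Fbxw4 (0.999). The median over all genes that are no members was 4.38. Tcl1b3, at 0.87, was the member nearest to Tcl1, and 1 gene outside the cluster was nearer. Those most like the mean of the Tcl1b genes were C86187 (0.60), Bcl2l10 (0.60), Obox5 (0.72), Oosp3 (0.73) and Pkd2l2 (0.73). The 5 Tcl1b genes, which make up that mean, lay between 0.33 and 0.51, and Tcl1 at 0.84, with 6 genes outside the cluster nearer than it.

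The neighbouring genes had smaller changes between the stages, in both directions. The nearest tested coding gene before the cluster, Glrx5, a mitochondrial glutaredoxin 103 kb away, had a log2 fold change of -0.72 ± 0.60 in NI and -0.84 ± 0.53 in Ctrl and was not called (edgeR). Syne3, which encodes a nuclear envelope protein, was called higher in NI (2.50 ± 1.05, adjusted p = 0.0444) and not called in Ctrl (-1.25 ± 0.75). Clmn was called in neither, with -1.63 ± 0.87 and 0.46 ± 0.77. Dicer1, the nuclease that makes microRNAs, fell in both, with -2.31 ± 0.44 and -2.19 ± 0.40. After the cluster, the next tested coding gene, Bdkrb1, a bradykinin receptor 380 kb away, fell in both, with -5.04 ± 1.20 and -4.71 ± 1.02, from a mean of 2.41 and 4.29 CPM at 2C. Of the next 3, Ak7, an adenylate kinase, rose in both (2.59 ± 0.57 and 2.25 ± 0.46), and Atg2b and Gskip rose in Ctrl (1.20 ± 0.44 and 2.17 ± 0.53). In NI these were 0.39 ± 0.51 and -0.02 ± 0.60, and neither difference between NI and Ctrl was called (adjusted p = 0.517 and 0.120). None of the 8 flanking genes reached the smallest fall among the members, -7.40 for Tcl1b3 in NI. Most started too low to show it. Mean levels in NI 2C were 0.753 CPM for Syne3, 2.41 for Bdkrb1, 10.1 for Clmn, 10.6 for Ak7 and 18.4 for Atg2b. A fall of that size from these means would end below 3 counts in any 8C library. For Glrx5 and Gskip, with means of 47.3 and 50.4 CPM, it would end below 3 counts in most NI 8C libraries. For Dicer1, with a mean of 161 CPM, it would end above 3 counts in some of them.

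**Figure D5:**
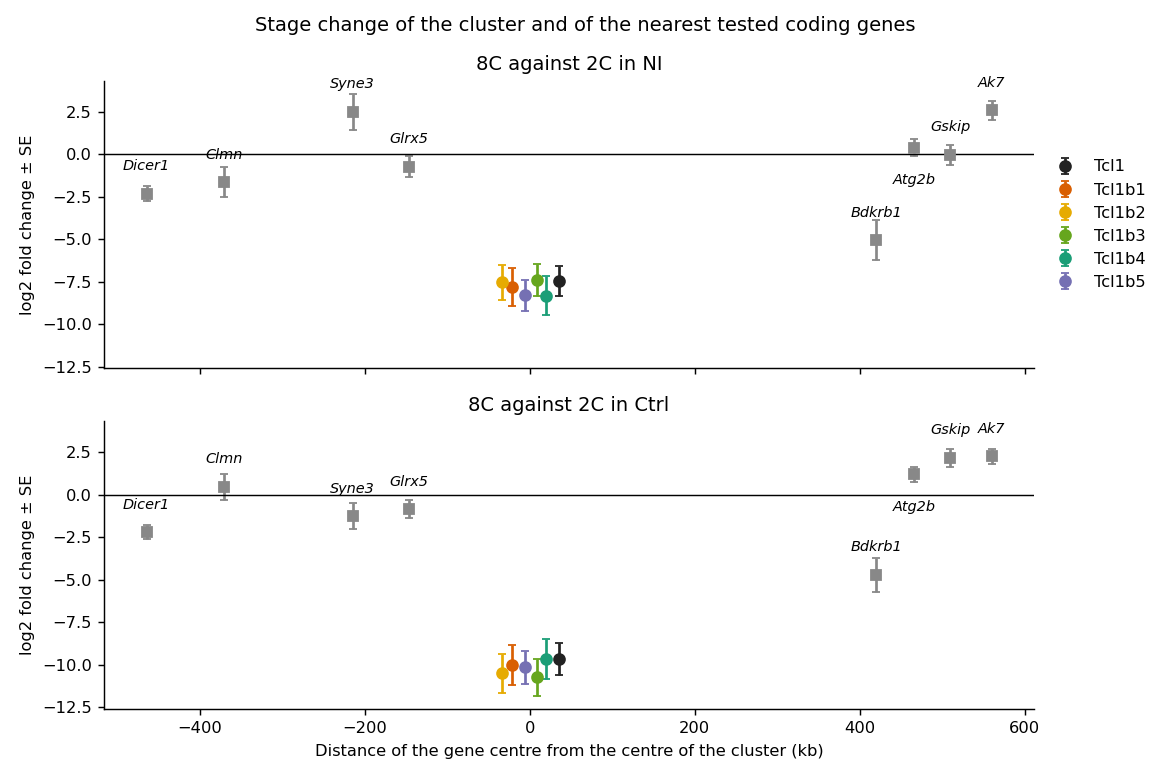
edgeR log2 fold change of 8C against 2C, with its SE, against the distance in kb of each gene's centre from the centre of the cluster, in NI (top) and Ctrl (bottom); grey squares are the 4 nearest tested coding genes on each side. The 6 members sit between -8.30 and -7.40 in NI and between -10.74 and -9.64 in Ctrl, below all 8 flanking genes. Most of the flanking genes had too few counts at 2C to show a fall as large.

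Mtcp1, the X-linked paralog of Tcl1, was far less abundant, at 2.56 to 37.9 CPM in the 2C libraries. Its log2 fold change at 8C was -1.38 ± 0.80 in NI (edgeR adjusted p = 0.144) and -2.78 ± 0.74 in Ctrl (adjusted p = 0.00148), and the stages overlapped in both.

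The AKT pathway, on which TCL1 proteins act, was followed in a list of 39 genes, of which 36 were tested across the stages. In NI 4 were called higher and 17 lower (edgeR), with a median log2 fold change of -1.71, and in Ctrl 5 higher and 21 lower, with a median of -1.46, where 31.4% and 39% of all genes were called lower. Of the kinases, Akt1 fell in both (-2.12 ± 0.68 in NI and -2.69 ± 0.64 in Ctrl). Akt2 was at -0.76 ± 0.42 in NI (adjusted p = 0.131) and fell by 1.14 ± 0.37 in Ctrl. Upstream of AKT, Pik3cd, a catalytic subunit of PI3-kinase, fell in both (-4.48 ± 0.86 and -7.16 ± 0.92). The regulatory subunit Pik3r1 fell likewise (-3.37 ± 0.53 and -4.87 ± 0.53), and the adaptor Irs2 fell by 5.90 ± 1.21 in NI, from a mean of 27.2 CPM at 2C. In Ctrl, where the 2C mean was 1.14 CPM, Irs2 was at -1.99 ± 1.18 and was not called (edgeR adjusted p = 0.140). Phlpp2, a phosphatase that acts on AKT, fell by 4.24 ± 0.68 in Ctrl. Downstream, Foxo1, a transcription factor that AKT restrains, fell in both (-4.20 ± 0.46 and -3.01 ± 0.42), and Cdkn1b, a cell cycle inhibitor, fell by 5.37 ± 1.05 in Ctrl, from a mean of 8.56 CPM. In the other direction Mlst8, a subunit of both mTOR complexes, rose by 3.83 ± 0.62 in NI, and Bad, a cell death protein that AKT restrains, by 3.59 ± 0.87 in NI and 3.04 ± 0.68 in Ctrl. In the treatment comparisons 0 of 34 tested genes of the list were called at 2C and 0 of 26 at 8C (edgeR). Of all genes tested 0% were called in these comparisons, so the list does not stand apart.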

How the data were processed

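The 36 RNA-seq libraries of pooled mouse embryos were grouped by their labelled treatment and stage. The deposited table holds expected counts per gene symbol. Per the submitters' processing notes, the authors used Bowtie2, RSEM and the mm10 build. Versions of these tools, and the gene annotation, were not given in the sources used here. RSEM divides reads that fit several genes between them, which touches the Tcl1b genes most. The estimated counts, 9.85% of them not whole, were rounded before testing.

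Comparisons used edgeR 4.0.16 in R 4.3.3 (quasi-likelihood, with limma 3.58.1), TMM scaling, robust estimation, filterByExpr (minimum count 10, minimum total 15) and Benjamini-Hochberg adjustment over all genes tested. Genes with an adjusted p under 0.05 are called. Fits within a stage took all libraries of that stage (11799 genes tested at 2C and 9850 at 8C), and stage comparisons and the interaction took all 36 (13158 genes). The biological coefficient of variation was 0.738, 0.609 and 0.703. CPM are relative to TMM-scaled totals. SE is the size of the log2 fold change divided by the root of F. The code was tested on simulated counts. Ratios were tested by exact permutation and correlations with 100000 resamples (scipy 1.17.1), and sequences aligned with Biopython 1.88. Alternatives were DESeq2 size factors, the DESeq2 1.42.0 test, no filter, fits of 2 groups alone, a pseudocount of 2 for ratios and leaving out each library. Genes named are the 6 members, the 5 most alike in pattern, the 4 nearest tested coding genes on each side, and up to 4 of each list that passed with the largest change. Akt1, Akt2, Mlst8 and Bad, and the second value of Pik3r1 and Foxo1, were added by role after their values were seen, and 1 gene that the rule names is not reported here. The members and lists were chosen with earlier results of these data known.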

Additional observations from a re-analysis of the deposited data

Results flagged for a closer look

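In 51 groups of 4 to 7 libraries checked for 1 library far from the others, 2 stood out, and chance gives about 1 in 20. Tcl1b5 was at 2.11 CPM in NI 8C replicate 4, the deepest library, and its gap to the nearest of the other 5 was 0.666 of the group's range, above the critical value of 0.625. The log2 ratio of Tcl1b3 to Tcl1 was -1.4 in NI 2C replicate 3, and its gap to the nearest of the other 3 libraries was 0.898 of the range, above 0.829. In that library Tcl1 took 18.6% of the cluster's counts, the lowest share at 2C.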

How the results depend on the processing

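The number of members called was the same under every alternative run, 6 in each stage comparison and 0 in all others, while counts over all genes moved. At 2C the DESeq2 test called 242 genes between KRAB and Ctrl and 1086 between Ctrl and NI. At 8C it called 1 between VP64 and Ctrl, 1 between Ctrl and NI and 21 between VP64 and NI. For the interaction it called 690. In each of these edgeR called 0, and without the filter its interaction gave 2. Leaving out 1 library gave 0 to 159 genes between KRAB and Ctrl, 0 to 1374 between Ctrl and NI at 2C and 0 to 1098 for the interaction, the highest each time without Ctrl 2C replicate 6, the shallowest library. Of the interaction, 84 and 265 genes were called without Ctrl 2C replicates 2 and 4, and 1 each without Ctrl 8C replicate 5, NI 8C replicate 2 or NI 8C replicate 5. With a pseudocount of 2 the stage difference of the log2 ratio to Tcl1 turned to 0.27 for Tcl1b2, 0.71 for Tcl1b3 and 0.18 for Tcl1b5 in NI, and to 0.089 for Tcl1b3, 0.24 for Tcl1b4 and 0.49 for Tcl1b5 in Ctrl; few counts at 8C enter these. Values that changed sign when 1 library was left out were all uncalled. For log2 fold changes they ranged from -0.16 to 0.32 for Tcl1b1 and -0.12 to 0.38 for Tcl1b4 in KRAB against Ctrl, from -0.27 to 0.17 for Tcl1 in VP64 against Ctrl, from -0.45 to 0.40 for Tcl1 in Ctrl against NI at 8C, from -0.52 to 0.34 for Tcl1 and -0.16 to 0.85 for Tcl1b1 in VP64 against NI, and from -2.16 to 0.15 for Tcl1b4 in the interaction. For the log2 ratio to Tcl1 they ranged from -1.06 to 0.027 for Tcl1b1, -0.46 to 0.44 for Tcl1b2 and -0.37 to 0.40 for Tcl1b3 between the stages in NI. They ranged from -0.77 to 0.13 for Tcl1b2, -0.61 to 0.24 for Tcl1b3 and -0.68 to 0.25 for Tcl1b4 in Ctrl against NI at 2C, and from -0.31 to 0.62 for Tcl1b1 and -0.20 to 0.68 for Tcl1b5 in KRAB against NI. The highest of these ratio values came without NI 2C replicate 3. Apart from what the few 8C counts and the dropped libraries show, the cause was not tested. Few counts limit the 8C values of the Tcl1b genes, of which Tcl1b2 to Tcl1b5 did not pass the filter there. No paired analysis was possible because the labels give no replicate numbers, so that the numbers here, in accession order, pair nothing.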
